A study of Mus musculus with 10 samples.

Results

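Major histocompatibility complex (MHC) class I and its peptide loading machinery were followed through 10 genes in mouse embryonic fibroblasts (MEFs) on their way to induced pluripotent stem cells. The genes are H2-K1, H2-D1, H2-T23, H2-Q4, H2-M3, B2m, Tap1, Tap2, Tapbp and Nlrc5, taken by symbol from the 48476 genes of the series' table, and all 10 were found. The fibroblasts came from E13.5 embryos of CBA/CaJ and C57BL/6J parents and, per the study's methods, carried an Oct4-GFP reporter. All 10 libraries received retroviruses for Oct4, Klf4 and Sox2 (OKS) and were cultured in iCD1 medium. The control arm, OKS + DsRed, also received the red fluorescent protein DsRed, and the other arm, OKS + FoxO6, received the forkhead factor FoxO6 in its place. There was a single library for each arm and each of the days 0, 1, 3, 5 and 7, so no condition has a replicate, and all libraries of an arm may derive from 1 infected culture. The sex of the embryos was not given in the sources used here.

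MHC class I presents peptides from inside the cell to CD8 T cells. A polymorphic heavy chain pairs with beta-2-microglobulin (B2m), peptides made by the proteasome are pumped into the endoplasmic reticulum by the transporter of Tap1 and Tap2, and tapasin (Tapbp) holds the empty heavy chain at the transporter until a peptide binds. Nlrc5 is the transactivator that drives this set of genes, and interferons are its best known inducers. Fibroblasts raise their surface class I when they meet interferon, and pluripotent stem cells are known for low class I.

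Class I heavy chain promoters are known to carry a kB site, an interferon response element and, nearer to the start, the module whose X2 and Y boxes hold the Nlrc5 complex. Promoters of 250 bases before to 50 bases after the start were taken from RefSeq (GRCm38.p6) for 8 of the 10 genes, with none for Tap2 and Nlrc5. Below are the stretches before the start of 3 heavy chains and of B2m that hold no annotated untranslated base, printed 5′ to 3′ on the strand of the gene, with every match to the searched motifs in capitals. H2-K1 lies at chr17:34000348-34000527 on the minus strand, H2-Q4 at chr17:35379437-35379616, H2-M3 at chr17:37270054-37270219 and B2m at chr2:122147507-122147685 on the plus strand.
H2-K1: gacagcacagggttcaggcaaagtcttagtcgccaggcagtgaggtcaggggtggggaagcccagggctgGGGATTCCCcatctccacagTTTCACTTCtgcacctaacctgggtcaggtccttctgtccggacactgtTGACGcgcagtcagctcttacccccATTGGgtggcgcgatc
H2-Q4: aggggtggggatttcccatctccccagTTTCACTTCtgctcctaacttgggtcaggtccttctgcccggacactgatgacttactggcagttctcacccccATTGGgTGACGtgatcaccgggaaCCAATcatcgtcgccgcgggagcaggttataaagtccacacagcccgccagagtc
H2-M3: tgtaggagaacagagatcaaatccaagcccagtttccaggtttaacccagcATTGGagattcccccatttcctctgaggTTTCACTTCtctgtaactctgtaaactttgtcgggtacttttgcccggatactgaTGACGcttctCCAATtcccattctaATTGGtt
B2m: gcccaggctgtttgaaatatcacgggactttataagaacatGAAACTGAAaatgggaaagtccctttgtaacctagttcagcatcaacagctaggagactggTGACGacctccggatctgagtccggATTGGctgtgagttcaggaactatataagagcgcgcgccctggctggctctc
The motifs were GAS (TTCNNNGAA), the ISRE core (GAAANNGAA), kB (GGGATTCCC), the core of the X2 box (TGACG) and the Y box (CCAAT), searched on both strands. A second interferon factor element, GAANNGAAA, was added after the promoters had been read. It can overlap the ISRE core, and X2 and Y are short. Positions count the start base as 0. The added element was found in H2-K1, H2-D1, H2-Q4 and H2-M3, 4 of 8 promoters, against 7.56% of 27025 promoters of all genes. The ISRE core was found in H2-T23 and B2m, 2 of 8, against 8.57%. kB was found in H2-K1 and H2-D1, against 0.37%. The letters of X2 were found in 6 of 8, against 21.02%, and those of Y in all 8, against 37.9%. GAS was found in H2-M3 alone of the 8, against 8.47%. In H2-K1 the kB match began at -110, the interferon element at -90, X2 at -41 and Y at -16. In H2-D1 the same matches began at -170, -150, -101 and -76, so the spacing was the same in both genes. X2 and Y stood equally far apart in H2-M3, at -46 and -21, and in B2m, at -78 and -53. In H2-Q4 the X2 letters before the start began at -73, between Y matches at -79 and -55, and neither Y match had the distance from X2 found in those 4 promoters. At that distance before the Y match at -79, H2-Q4 reads TGACT, which differs from the searched X2 letters in the last base. These heavy chain promoters are close copies of each other and are not independent cases, and a match is no measurement of binding.

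**Figure D1:**
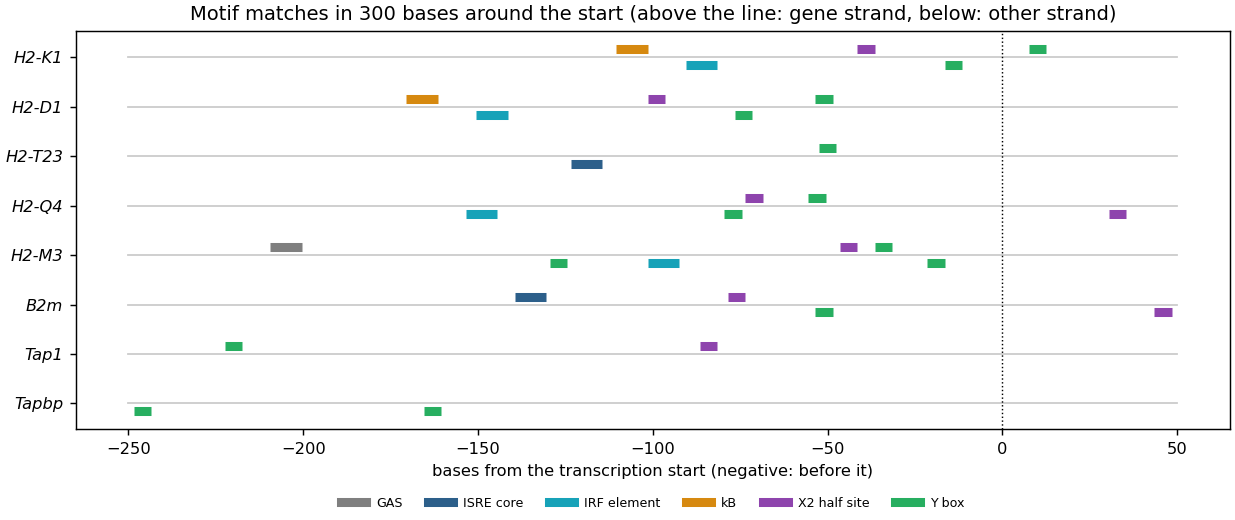
Map of motif matches in the promoters of 8 genes; the x axis is the distance in bases from the transcription start, and blocks above a line lie on the gene strand and below it on the other strand. H2-K1, H2-D1, H2-Q4 and H2-M3 carry the added interferon element before their X2 match, and Tapbp carries Y matches only.

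A library held 1208379 to 2225750 expected counts (median 1601151). Levels are given as TPM, the deposited measure of transcripts set per length and library, and counts are RSEM expected counts. Foxo6, which checks the labels, had a TPM of 0.61 to 2.29 in OKS + DsRed and of 762 to 1356 in OKS + FoxO6. It was already at 1017 at day 0, so day 0 was not a time before transduction in that library. Heavy chain genes are near copies of each other, and reads that they share were split by RSEM. Expected counts were not whole, by a tolerance of 0.005, in 9 of 10 libraries for H2-K1, in 10 for H2-D1, in 8 for H2-Q4, in 3 for H2-T23 and in none for H2-M3 and B2m. The parents carry different class I alleles and the reads were matched to the C57BL/6J sequence, which makes the level of each single heavy chain uncertain. The effect of this was not tested.

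The classical heavy chains, which present peptides to CD8 T cells, started at a low level in both arms. In the control libraries, from day 0 to day 7, H2-K1 (GRCm38 chromosome 17, 33996017 to 34000347, minus strand) stood at 116, 124, 430, 2518 and 2273 TPM. With FoxO6 it stood at 85.8, 95.6, 126, 299.9 and 697 TPM. H2-K1 was lower in OKS + FoxO6 on all 5 days, and its level at day 7 there lay between days 3 and 5 of the control. The control levels of H2-D1 (chromosome 17, 35262730 to 35267499, plus strand) were 117, 109, 269, 970.4 and 868 TPM, always in the order of days. Those with FoxO6 were 95.5, 128, 138, 218 and 376 TPM. The arms of H2-D1 were close at days 0 and 1 and stood apart from day 3.

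The non-classical heavy chains are less polymorphic. H2-T23 encodes Qa-1, the ligand of the CD94/NKG2A receptor of natural killer cells. Its TPM (chromosome 17, 36029773 to 36032855, minus strand) was 1.1, 3.94, 60.4, 151 and 117 in OKS + DsRed, from 1.0 count at day 0. The FoxO6 libraries gave 4.76, 4.62, 12.97, 36.4 and 65.5. H2-T23 was higher in OKS + FoxO6 at day 0, on 8.0 counts against 1.0, and lower from day 3. For H2-Q4 (chromosome 17, 35379617 to 35385290, plus strand) the control series was 6.26, 15.2, 77.7, 577 and 471 TPM. The FoxO6 series was 4.09, 20.7, 13.49, 49.1 and 91.3 TPM. H2-Q4 was at 4 to 21 TPM in both arms through day 1, and at day 5 the control stood far above. H2-M3, which presents formylated peptides, stayed low. Its TPM (chromosome 17, 37270220 to 37274484, plus strand) was 3.37, 0.96, 10.9, 15.9 and 11.2 in OKS + DsRed. With FoxO6 it was 3.96, 1.77, 2.98, 7.89 and 6.49, and no library held more than 15 counts, so little can be read from single days of H2-M3.

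B2m, the light chain that every class I heavy chain needs, had the highest level of the 10 genes in every library. Its TPM (chromosome 2, 122147686 to 122153083, plus strand) was 610.2, 658, 1942, 5503.5 and 4455 in OKS + DsRed. Under FoxO6 it was 789, 1066, 1222, 1891 and 2768. B2m was thus higher in OKS + FoxO6 at days 0 and 1 and lower at days 3, 5 and 7.

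Tap1 and Tap2 form the peptide pump. Control levels of Tap1 (chromosome 17, 34187553 to 34197225, plus strand) were 6.43, 12.3, 131, 291 and 194 TPM. Levels with FoxO6 were 3.19, 8.52, 15.5, 44.7 and 41.8 TPM, so that its highest level there was under that of the control at day 3. Tap2 (chromosome 17, 34203527 to 34216321, plus strand) was measured at 25.5, 22.1, 32.5, 90.4 and 54.3 TPM in OKS + DsRed. It was measured with FoxO6 at 5.59, 17.6, 9.88, 20.2 and 36.2. The effective length behind these Tap2 values ranged from 1095 to 2802 bases between libraries, the shortest being OKS + DsRed at day 0. As counts, Tap2 had 18, 27, 62, 165 and 131 in OKS + DsRed. It had 17, 39, 27, 53 and 82 counts in OKS + FoxO6, and scaled to library size the day 0 ratio was 0.50 (exact 95% counting interval 0.24 to 1.03), a smaller gap than that in TPM.

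Tapbp, the loading chaperone, had a TPM (chromosome 17, 33915899 to 33929292, plus strand) of 24.6, 64.9, 231, 457 and 349 in OKS + DsRed. The other arm gave 33.3, 63.5, 94.2, 211 and 264. The arms of Tapbp were near each other at days 0 and 1, and among the 10 genes it had the smallest gap at day 7. Nlrc5, the transactivator, had a TPM (chromosome 8, 94434356 to 94527272, plus strand) of 0.34, 1.96, 36.8, 78.9 and 64.2 in OKS + DsRed. The other arm gave 1.36, 0.81, 0.62, 14.2 and 3.64. The effective length of Nlrc5 ranged from 675 to 6130 bases. As counts it had 1, 1, 89, 213 and 187 in OKS + DsRed against 5, 2, 1, 44 and 20 in OKS + FoxO6. Nlrc5 thus had at most 5 counts in either arm through day 1, was well covered in the control from day 3 and passed 5 counts in OKS + FoxO6 only at days 5 and 7.

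**Figure D2:**
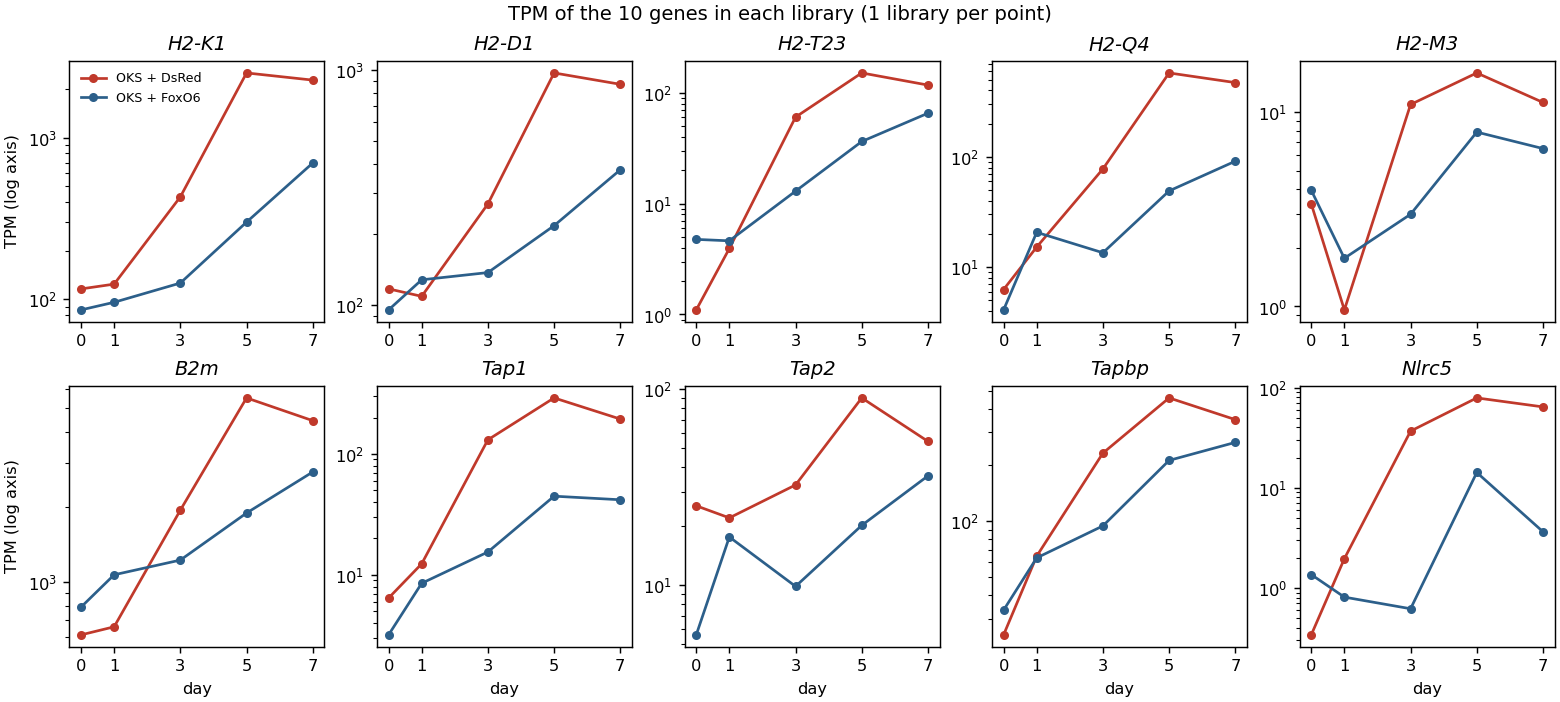
TPM of each gene (log axis) against day, with 1 point per library, OKS + DsRed in red and OKS + FoxO6 in blue. All 10 genes are highest at day 5 in the control, while in OKS + FoxO6 7 of 10 are highest at day 7, and the arms lie close together or cross at days 0 and 1 for most genes.

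The first question was how the genes moved along the control course. The straight line through the 5 days rose for 9 of the 10 genes in OKS + DsRed (edgeR's quasi-likelihood test, Benjamini-Hochberg adjusted p under 0.05). Of all 12139 genes tested, 5.82% rose in the same test. The median slope of the 10 genes was 0.65 log2 units per day, against 0.00 over all tested genes. H2-Q4 had the steepest slope, 0.98 ± 0.14 (SE, adjusted p = 0.00208), and Tap2 the least steep of the 9, 0.40 ± 0.10 (adjusted p = 0.0303). H2-M3 had 0.34 ± 0.15 and did not pass (adjusted p = 0.182). The course was not a straight line, since all 10 genes had their highest TPM at day 5. With the effective length of each library as an offset, 7 of 10 slopes passed, since Tap2 (0.24 ± 0.10, adjusted p = 0.141) and Nlrc5 (0.75 ± 0.22, adjusted p = 0.0527) did not. Without the control library of day 0, or without that of day 1, 5 of 10 slopes passed.

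From day 0 to day 5 of the control, all 10 genes were higher by more than 2-fold on the log2(TPM + 1) scale at the later day, as were 22.6% of 14837 expressed genes (mean TPM 1 or more). These differences between 2 libraries have no replicate check, and the intervals given with them are exact 95% binomial intervals that cover counting error only. Per scaled library, the counts of B2m were 7.94-fold (7.06 to 8.94) and those of H2-K1 19.1-fold (15.8 to 23.2) those of day 0. Tap1 stood at 39.2-fold (22.3 to 76.3) and Tapbp at 18.2-fold (12.7 to 27). H2-T23 and Nlrc5 had 1.0 count each at day 0, which gives 134-fold with an interval from 23.8 to 5343 and 177-fold with one from 31.4 to 7015. The difference was present by day 3. Between days 1 and 3 the interval of all 10 genes lay above 1, against 12.3% of the expressed genes, with 10.5-fold (7.06 to 16.2) for Tap1, 14.3-fold (5.86 to 45.5) for H2-T23 and 2.91-fold (2.60 to 3.27) for B2m. Between days 0 and 1 only Tapbp of the 10 had an interval above 1 (14.5% of the expressed genes).

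After day 5 the control levels were lower again. All 10 genes had a lower TPM at day 7 than at day 5, and the counting interval lay below 1 for 8 of them (9.25% of the expressed genes). Tap2 stood at 0.59 of its day 5 counts (0.46 to 0.74), Nlrc5 at 0.65 (0.53 to 0.79) and Tap1 at 0.65 (0.58 to 0.74). H2-K1 stood at 0.93 (0.89 to 0.98), and the interval of H2-D1 covered 1. Over the same step the epithelial genes Epcam and Cdh1 were still climbing, from a TPM of 103 to 227 and from 106 to 201.

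The second question was whether FoxO6 changed this course. Over the 5 days, with day as a factor, 5 of the 10 were lower with FoxO6 and none was higher. Of all tested genes, 6.92% were lower in this test. The median difference of the 10 genes was -1.18 log2 units, against -0.02 over all tested genes. The shift was -3.04 ± 0.51 (SE) for Nlrc5 (adjusted p = 0.00343), -2.21 ± 0.28 for Tap1 (adjusted p = 0.000659) and -2.17 ± 0.45 for H2-Q4 (adjusted p = 0.00982). The shift was -1.55 ± 0.32 for H2-K1 (adjusted p = 0.00998) and -1.33 ± 0.36 for H2-T23 (adjusted p = 0.0330). The other 5 were negative without passing. H2-D1 had -0.88 ± 0.27 (adjusted p = 0.0556) and Tap2 -1.03 ± 0.32 (adjusted p = 0.0588), next to the threshold. H2-M3 had -0.78 ± 0.48 (adjusted p = 0.336), Tapbp -0.47 ± 0.22 (adjusted p = 0.200) and B2m -0.39 ± 0.26 (adjusted p = 0.368). The same 5 genes do not pass everywhere. Without day 3, or without day 5, 3 genes passed (H2-T23 and H2-Q4 did not). With the length offset Tap2 passed (-1.34 ± 0.31, adjusted p = 0.0207) and H2-T23 did not (-1.27 ± 0.38, adjusted p = 0.0607). DESeq2 called H2-K1, Tap1 and Tap2, and without the day term none passed. The sizes moved as well. Over all alternative fits the shift of B2m lay between -0.73 and -0.10 and that of Tapbp between -0.67 and -0.28. For H2-D1 it lay between -1.23 and -0.55, and for Tap2 between -1.34 and -0.64.

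**Figure D3:**
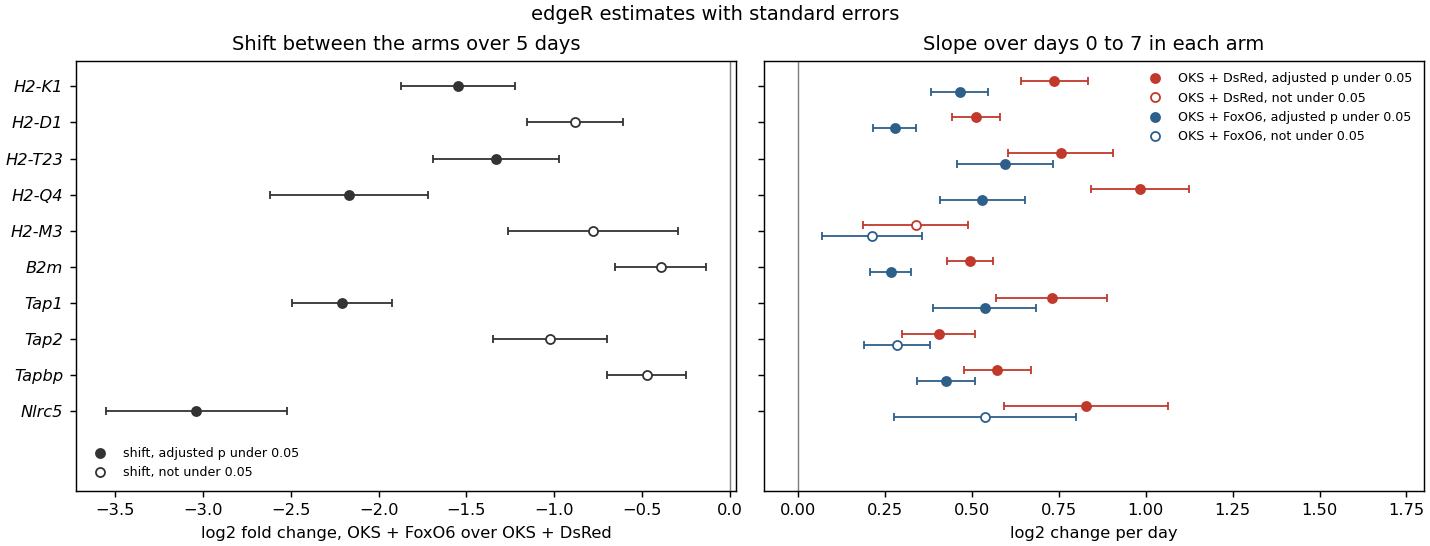
Left, log2 fold change of OKS + FoxO6 over OKS + DsRed across 5 days for each gene; right, log2 change per day in each arm, with bars for the standard error of the edgeR fit and filled points for adjusted p under 0.05. All 10 shifts lie below 0 and 5 are filled, and the slope of OKS + FoxO6 lies below that of OKS + DsRed for every gene.

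Day by day the gap of most genes opened at day 3. The threshold is a difference of more than 2-fold in log2(TPM + 1). At day 0, 1 of 10 genes was lower by more than this in OKS + FoxO6 (6.32% of the expressed genes), and 1 was higher. The number was 0 of 10 on day 1 (9.33% of the expressed genes), 8 on day 3 (11.7%), 9 on day 5 (11.4%) and 5 on day 7 (16.3%). The gene lower at day 0 was Tap2 and the one higher was H2-T23, for which the intervals of the count ratio, 0.24 to 1.03 and 0.57 to 189, covered 1. Within 2-fold, H2-K1 had an interval below 1 at day 0 (0.64, 0.50 to 0.83) and day 1 (0.76, 0.59 to 0.98). B2m had one above 1 at day 0 (1.17, 1.02 to 1.34) and day 1 (1.60, 1.41 to 1.81). The median difference of the 10 genes was -0.06, 0.08, -1.69, -2.13 and -1.02 in the order of days, while that of the expressed genes lay between -0.14 and 0.09. In bulk samples, fewer cells that express a gene and less RNA per cell cannot be told apart.

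At day 3 the counting interval of the ratio, OKS + FoxO6 over OKS + DsRed, lay below 1 for all 10 genes, as it did for 14.4% of the expressed genes. The widest gap was that of Nlrc5, with 1.0 count against 89.0, a ratio of 0.0083 (0.00021 to 0.048). Tap1 stood at 0.12 (0.084 to 0.16), H2-Q4 at 0.16 (0.098 to 0.25) and H2-T23 at 0.21 (0.12 to 0.35). B2m stood at 0.62 (0.57 to 0.68) and H2-D1 at 0.50 (0.43 to 0.59), the 2 genes within 2-fold on the log2(TPM + 1) scale. H2-K1 stood at 0.28 (0.24 to 0.34), and H2-M3 at 0.27 on 4 counts against 11, with an interval from 0.063 to 0.91 that spans the ratios of all the others but Nlrc5. Nlrc5, Tap1, H2-Q4 and H2-T23 thus had the lowest ratios on that day, and B2m and H2-D1 the highest.

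At day 5 the interval lay below 1 for 9 genes, all but H2-M3, and for 16.8% of the expressed genes. H2-Q4 stood at 0.083 (0.066 to 0.10), H2-K1 at 0.11 (0.10 to 0.13) and Nlrc5 at 0.14 (0.096 to 0.19). B2m stood at 0.33 (0.31 to 0.35) and Tapbp at 0.47 (0.42 to 0.53). The classical chain H2-K1 was now among the widest gaps, and every gene other than H2-M3 was past 2-fold on the log2(TPM + 1) scale. At day 7 the gap of Nlrc5 was as wide in counts, at 0.13 (0.076 to 0.20), and wider in TPM, where the log2(TPM + 1) difference was -2.39 at day 5 and -3.81 at day 7. The effective length of Nlrc5 in OKS + FoxO6 was 3054 bases at day 5 and 6130 at day 7, the longest of the 10 libraries, so the wider gap in TPM came with that length and not with the counts. The count ratios of the other 9 genes were nearer to 1 than at day 5. H2-Q4 stood at 0.22 (0.18 to 0.26) and Tap1 at 0.26 (0.21 to 0.32). H2-K1 stood at 0.34 (0.32 to 0.37), H2-D1 at 0.48 (0.43 to 0.52), B2m at 0.69 (0.65 to 0.72) and Tapbp at 0.80 (0.72 to 0.90). Those more than 2-fold lower at day 7 on the log2(TPM + 1) scale were H2-K1, H2-D1, H2-Q4, Tap1 and Nlrc5.

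**Figure D4:**
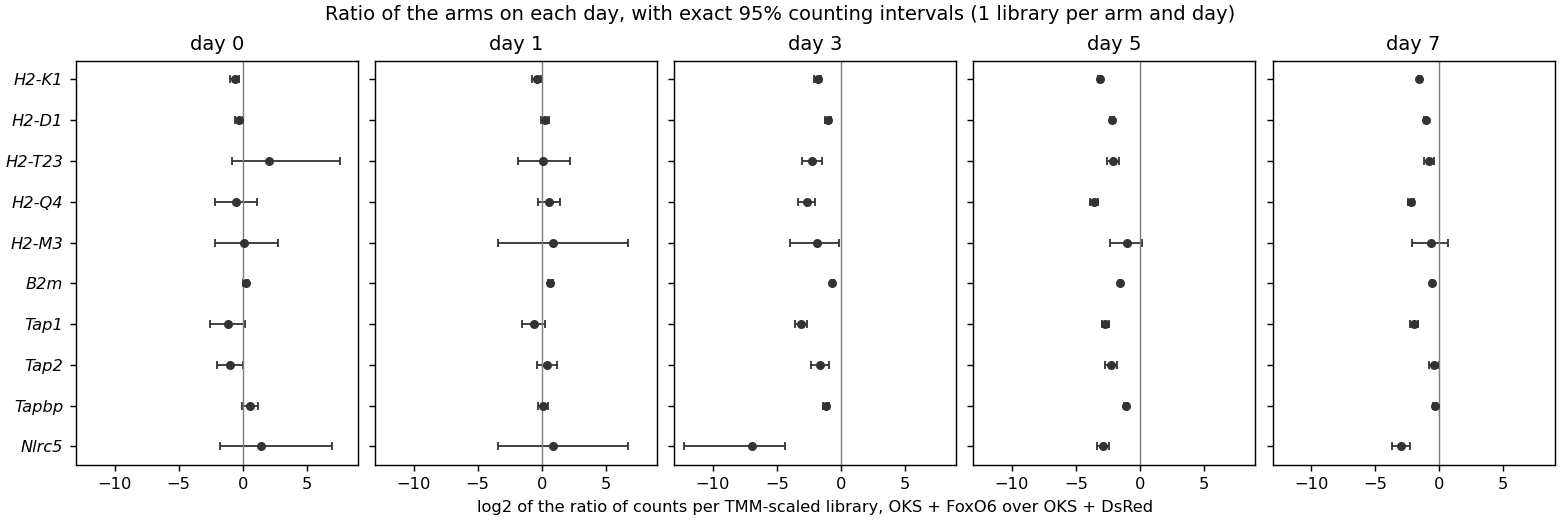
Log2 ratio of counts, OKS + FoxO6 over OKS + DsRed, for each gene and day, with bars for exact 95% counting intervals and 1 library per arm and day. Points scatter about 0 at days 0 and 1 and all lie left of 0 at days 3, 5 and 7. The widest bars are those of Nlrc5 at days 0, 1 and 3, of H2-M3 at day 1 and of H2-T23 at day 0.

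Class I was not silent in OKS + FoxO6. The slope rose for 7 of the 10 genes in that arm (4.82% of all tested genes), with a median of 0.44 log2 units per day against 0.01 over all tested genes. H2-T23 had 0.59 ± 0.14 (SE, adjusted p = 0.0246), H2-Q4 0.53 ± 0.12 (adjusted p = 0.0242) and H2-K1 0.46 ± 0.08 (adjusted p = 0.00813). B2m had 0.27 ± 0.06 (adjusted p = 0.0203). Tap2 (adjusted p = 0.0878), Nlrc5 (adjusted p = 0.229) and H2-M3 (adjusted p = 0.395) did not pass. With the length offset 6 passed, Tap1 having an adjusted p of 0.0508. These calls rest on the ends of the course. Without OKS + FoxO6 day 7 none of the 10 passed, and without its day 0 only 1 did. From day 0 to day 7, 8 of 10 genes were higher by more than 2-fold on the log2(TPM + 1) scale (14.3% of the expressed genes).

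The difference between the slopes was tested directly. It was negative for all 10 genes, from -0.12 ± 0.14 (SE) for Tap2 to -0.45 ± 0.20 for H2-Q4, with a median of -0.21. None of the 10 passed, with adjusted p from 0.536 to 0.887, and in this test 0.0% of all tested genes were lower and none was higher, although 1030 genes had an unadjusted p under 0.05. DESeq2 called 15 genes lower and 16 higher, none of them among the 10. A term for the days from 3 on in place of the slope, chosen after seeing the data, gave -1.15 for Tapbp to -4.48 for Nlrc5, with unadjusted p of 0.000193 for H2-Q4 and 0.000838 for B2m. No gene passed its adjustment (lowest adjusted p among the 10, 0.112). The later opening of the gap is therefore a description of these libraries.

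The last step was read in OKS + FoxO6 as well. From day 5 to day 7 of OKS + FoxO6 the interval of the count ratio lay above 1 for 7 genes (15.2% of the expressed genes), with 2.81-fold (2.51 to 3.15) for H2-K1, 2.30-fold (1.77 to 3.01) for H2-Q4, 2.08-fold (1.46 to 3.0) for Tap2 and 1.747-fold (1.63 to 1.87) for B2m. Tap1 stood at 1.10 (0.85 to 1.43), H2-M3 at 0.98 (0.34 to 2.67) and Nlrc5 at 0.61 (0.34 to 1.06). H2-K1, H2-Q4 and B2m were thus higher at day 7 than at day 5 beyond counting error, and Nlrc5 was not. The difference between the arms in this step was not tested.

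Set beside the control, OKS + FoxO6 at day 7 was above OKS + DsRed at day 3 for 5 genes by the counting interval (16.5% of the expressed genes) and below it for 2 (16.9%). H2-K1 stood at 1.91 times its control level of day 3 (1.71 to 2.13), H2-D1 at 1.67 (1.47 to 1.91), B2m at 1.66 (1.54 to 1.78), Tapbp at 1.35 (1.18 to 1.54) and H2-Q4 at 1.34 (1.04 to 1.73). The intervals of H2-T23, H2-M3 and Tap2 covered 1. Tap1 stood at 0.37 (0.30 to 0.47) and Nlrc5 at 0.21 (0.12 to 0.35), both below 1, and in TPM, with that longest length, the gap of Nlrc5 was wider, at 3.64 against 36.8. The library with FoxO6 thus held less Tap1 and Nlrc5 than this control library, although it held more H2-K1, H2-D1 and B2m. That 2 of 10 genes lay below is close to the share of all expressed genes. Against day 5 of the control, 9 of 10 intervals lay below 1 (17.8% of the expressed genes).

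Ratios between subunits, taken on TPM within a library, also moved. B2m was at 2.50, 2.60, 2.29, 1.30 and 1.19 times the summed TPM of the 5 heavy chains along the control course. It was at 4.07, 4.25, 4.17, 3.09 and 2.24 times in OKS + FoxO6. The light chain was in higher proportion in OKS + FoxO6 on all 5 days, and the proportion was lower at days 5 and 7 than at days 0 and 1 in both arms. H2-K1 was at 0.99, 1.14, 1.60, 2.59 and 2.62 times the TPM of H2-D1 in OKS + DsRed and at 0.90, 0.75, 0.91, 1.38 and 1.85 times in OKS + FoxO6. The TPM of the 2 classical chains thus moved from near equal parts towards H2-K1, at an earlier day in the control. The level of each single heavy chain is uncertain, and so is this ratio. Counts of Tap1 were at 0.67, 1.00, 4.47, 3.43 and 3.84 times those of Tap2 in OKS + DsRed and at 0.59, 0.49, 1.63, 2.51 and 1.33 times in OKS + FoxO6.

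**Figure D5:**
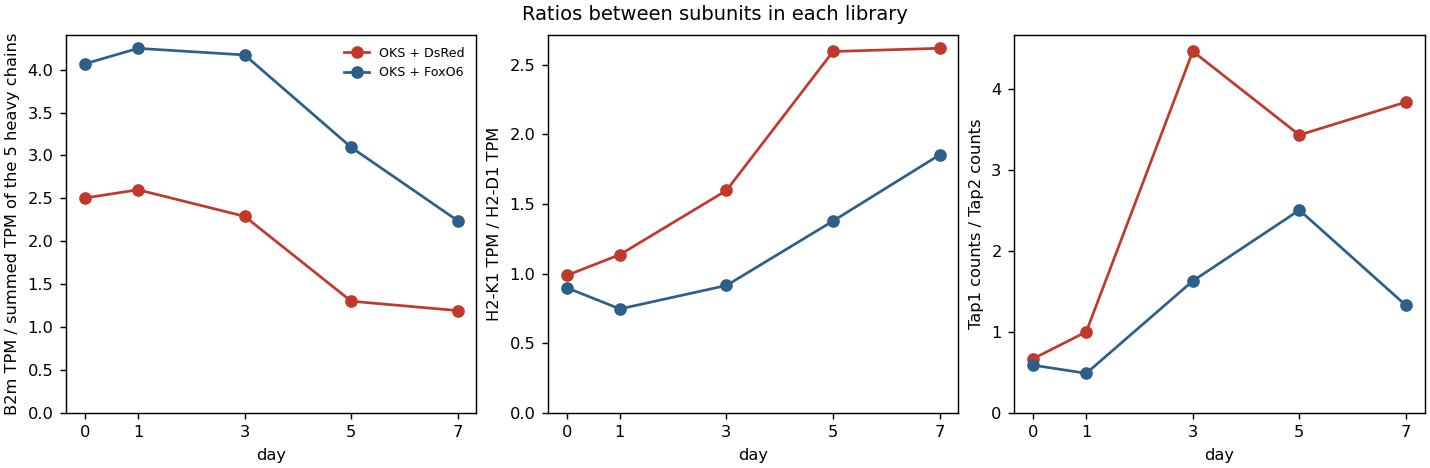
Ratios within each library against day: B2m TPM over the summed TPM of the 5 heavy chains, H2-K1 TPM over H2-D1 TPM, and Tap1 counts over Tap2 counts, with 1 point per library and axes from 0. The B2m ratio of OKS + FoxO6 lies above that of the control on every day, and the other ratios lie below it.

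The rest of the class I locus was read from a list of 22 other heavy chains, of which 19 were in the table and 9 had counts enough to test. Of these 9, 5 were lower in OKS + FoxO6 over the 5 days (median -1.59, 6.92% of all tested genes called), 7 rose in the control (5.82%) and 2 rose in OKS + FoxO6 (4.82%). H2-Q7 stood at 2.78, 1.42, 16.6, 347 and 329.6 TPM in the control against 7.12, 2.84, 3.51, 23.2 and 31.0 with FoxO6, with a shift of -2.30 ± 0.50 (SE, adjusted p = 0.0123). H2-Q6 had 0.80, 0.65, 8.81, 213 and 206 against 0, 0, 1.01, 3.90 and 19.9. Its shift was -4.13 ± 0.41 (adjusted p = 0.000167). H2-Q5 reached 57.2 in the control and 1.02, from 1.0 count, in OKS + FoxO6, and H2-Q10 reached 7.45 and 1.31. Both H2-Q5 and H2-Q10 had counts enough to test only through the control. Their calls as lower were thus set in advance and carry no weight. H2-T22, the fifth call, reached 249 and 69.0. These chains share most sequence with H2-Q4 and with H2-K1, so their split is uncertain. H2-K1 and H2-D1 held 87.2% of the summed heavy chain TPM at day 0 and 67.1% at day 5 in the control, and 80.0% and 74.9% in OKS + FoxO6.

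Before loading, peptides are cut and trimmed. The immunoproteasome subunits and their activator (5 genes) all rose in the control (5.82% of all tested genes) and 3 rose in OKS + FoxO6 (4.82%). Over the 5 days 3 of the 5 were lower in OKS + FoxO6 (6.92%). Psmb9, the neighbour of Tap1, stood at 0, 0, 20.1, 139 and 125 TPM in the control against 0.70, 1.69, 2.77, 10.9 and 12.9 with FoxO6 (shift -3.27 ± 0.44, SE, adjusted p = 0.000887). Psmb8 had a shift of -2.97 ± 0.43 (adjusted p = 0.00133) and Psme2 of -0.65 ± 0.18 (adjusted p = 0.0361). The 3 constitutive catalytic subunits passed no test, with shifts of -0.22 to 0.11. Of 6 genes of loading and trimming in the endoplasmic reticulum, 1 was lower (6.92% of all tested genes) and 1 rose in the control (5.82%). The lower one was Tapbpl, a relative of tapasin (-1.05 ± 0.30, adjusted p = 0.0398). The one that rose was Erap1, the peptide trimming enzyme. The general chaperones Calr, Canx, Pdia3 and Hspa5 passed no test, and their shifts lay between -0.10 and 0.06. Of 7 cytosolic peptidases, none passed the shift.

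Among the regulators of class I transcription, Irf1 was lower in OKS + FoxO6. Irf1, which binds interferon response elements, stood at 13.7, 30.7, 95.01, 155 and 81.7 TPM in the control against 11.8, 15.7, 9.89, 48.4 and 34.0 with FoxO6 (shift -1.79 ± 0.29, SE, adjusted p = 0.00262). Like Nlrc5, Irf1 was highest at day 5 in both arms. The subunits of the X2 and Y box complex, among them Rfx5, Rfxank, Rfxap, Nfya, Nfyb and Nfyc, passed no test of the shift. Of 11 interferon ligands, 9 had no count in any library, Ifng had 1.0 count in 1 library and Ifnz 3.0 in 1 library. At this depth a ligand made by few cells would not be seen.

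MHC class II was sparse. Of 10 class II genes 2 could be tested. Cd74, the invariant chain, stood at 1.34 TPM or less through day 3 of the control, then at 75.1 and 101, and at 4.83 or less with FoxO6. Cd74 had counts enough to test only through days 5 and 7 of the control. Its shift (-3.72 ± 0.78, SE) was thus set in advance to be negative and is not read as a call. Ciita, the class II counterpart of Nlrc5, had at most 8.0 counts in a library. Of 7 class I-like molecules, which use other loading routes, 5 could be tested and none passed the shift.

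Other cell types can bring class I into a culture. Among 12 markers of leukocytes and macrophages the summed TPM was 19.8 to 97.2 in OKS + DsRed and 33.6 to 55.7 in OKS + FoxO6. Of the 12, 2 could be tested, Cd68 and Laptm5, which held most of the sum. Laptm5 was lower in OKS + FoxO6 (shift -1.10 ± 0.26, SE, adjusted p = 0.0172), as were 6.92% of all tested genes. The defining markers Ptprc, Csf1r, Adgre1, Tyrobp and Fcer1g had at most 3, 2, 2, 1 and 1 counts in any library. Of 8 markers of T and natural killer cells, 4 had no count at all. Their sum was at most 6.42 in OKS + DsRed and 20.1 in OKS + FoxO6, nearly all from Cd3g, and Cd8a had at most 4.0 counts. The 6 endothelial markers had a summed TPM of 34.5 to 56.9 in OKS + DsRed and 46.6 to 143 in OKS + FoxO6. Of these 6, 3 could be tested. Tek (0.96 ± 0.13, adjusted p = 0.00112) and Kdr (2.20 ± 0.57, adjusted p = 0.0290) were higher in OKS + FoxO6, as were 812 of all 12139 tested genes. Flt1 had -0.28 ± 0.35 (adjusted p = 0.665). Pecam1, which could not be tested, reached 5.73 TPM in OKS + DsRed and 0.76 in OKS + FoxO6. The part of these cell types in the result was not tested.

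Markers of cell type also changed over the same days. The 10 fibroblast markers summed to 4135 TPM on day 0 of the control and 639.6 on its day 7, against 3759.5 and 1106 with FoxO6, with Col1a2 and Col1a1 the highest. Single markers went both ways. All 10 could be tested over the 5 days, and 3 were higher with FoxO6 (812 of 12139 tested genes). Col3a1 alone of the 10 was called lower (6.92% of all tested genes). The 4 epithelial markers, led by Epcam and Cdh1, summed to 11.2 on day 0, 274 on day 5 and 608 on day 7 of the control. With FoxO6 these sums were 3.14, 54.6 and 132. The 8 markers of pluripotent cells, led by Dppa5a and Sall4, summed to 5.55, 56.6 and 316 in the control and to 0.71, 24 and 52.0 with FoxO6. Of the 4 epithelial markers 3 could be tested and all 3 were lower in OKS + FoxO6, while of the 8 pluripotency markers 3 could be tested and only Nanog was lower (6.92% of all tested genes). At day 0 the sums of both lists were small and lower with FoxO6. At day 1 the pluripotency sum was 1.31 in the control and 1.10 with FoxO6. The part of these cells in the difference of class I was not tested. At days 1 and 3 of the control the epithelial sum was 20.0 and 92.7 and the pluripotency sum 1.31 and 6.41, and both were highest at day 7.

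The 10 genes followed each other. Over the 10 libraries the Pearson correlation of each with the mean log2(TPM + 1) of the others was 0.94 to 0.98 for H2-K1, H2-D1, H2-T23, H2-Q4, B2m, Tap1 and Tapbp, 0.92 for Nlrc5, 0.86 for H2-M3 and 0.82 for Tap2. These points share their libraries and a common course, and many genes do the same: of 11412 others (mean TPM 5 or more), 255 had a correlation above 0.9 with the mean of the 10. The 8 closest were Psme2 (0.99), Dnah8 (0.99), Pkp1 (0.98), Psmb9 (0.98), Platr15 (0.98), Iigp1 (0.98), Epsti1 (0.98) and Dmgdh (0.98). Psme2 and Psmb9 belong to the immunoproteasome and its activator, Iigp1 and Epsti1 are known as interferon-induced genes, and Pkp1 encodes a desmosome protein.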

How the data were processed

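RNA was sequenced from 10 libraries, 5 days in each of 2 arms. The labels name a VAHTS mRNA-seq V3 kit and the study's methods a TruSeq kit. The authors aligned reads with RSEM and Bowtie2 (versions not given in the sources used here) to the GENCODE M13 transcriptome and deposited expected counts, without normalization, in a table of the series and per library. RSEM also gave the TPM that the authors deposited for each library, a level set per length. Reads shared by paralogs were divided by RSEM.

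The 10 genes and all gene lists were chosen with earlier results of these data known. Differences per day are in log2(TPM + 1), with a pseudocount of 1 and a threshold of 2-fold. Ratios of counts were taken per TMM-scaled library with exact 95% Clopper-Pearson intervals, which cover counting error only. Rounded expected counts were fitted with edgeR 4.0.16 (R 4.3.3, quasi-likelihood test, TMM, filterByExpr) over 12139 genes, with arm and day as factors for the shift (residual degrees of freedom 4) and a line per arm for the slopes (6). Adjusted p under 0.05 was the threshold. All p-values describe these time courses, since no condition has replicate libraries. Standard errors were derived from the F statistics. Python 3.11.15 with scipy 1.17.1 was used for the rest, and the fits were tested on simulated data. Alternatives were DESeq2 1.42.0, other scaling, no filter, a length offset, ranked days and left-out libraries. The genes named are the 10, at most 4 called genes per list by size of shift, the 2 highest markers per list and the 8 genes of most like course. Other genes were named after their values were seen. Coordinates are those of GENCODE M21 (GRCm38). Some genes are not reported here.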

Additional observations from a re-analysis of the deposited data

How the results depend on the processing

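No shift of the 10 genes and no slope within an arm changed its direction under any alternative. The number lower in OKS + FoxO6 over the 5 days was 5 with either other scaling and with the length offset, 9 with no filter on low counts, 3 with DESeq2 and 0 without the day term. It ranged from 3 to 7 when 1 day was left out. The cause was not tested. The length offset left 7 of the control slopes past the threshold and 6 of those with FoxO6. Over all genes the calls without the day term were 123 higher and 38 lower, and with 1 day left out they were 375 to 863 higher and 338 to 848 lower. With 1 library left out, the slope passed for 5 to 9 of the 10 genes in OKS + DsRed (303 to 749 genes higher and 376 to 794 lower) and for 0 to 8 in OKS + FoxO6 (82 to 781 higher and 69 to 777 lower). The slopes differed for 3 higher and 3 lower genes with no filter, for 16 and 15 with DESeq2, and for 0 to 1 lower genes with 1 library left out. The sign of the difference in slope turned positive for Tap2 with the length offset, for H2-M3 without OKS + FoxO6 day 0 and for Nlrc5 without OKS + FoxO6 day 7, none of them past the threshold. With a pseudocount of 0.1, 1 of the 10 was more than 2-fold lower at day 1. Of 100 day values recomputed, 95 moved by less than their counting error. Between 1208379 and 2225750 expected counts per library leave H2-M3, and the early days of H2-T23 and Nlrc5, with too few counts for a precise ratio.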
